A study of Mus musculus with 8 samples.

Results

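The 6 genes described here encode the MHC class II antigen-presentation set: Cd74, H2-Aa, H2-Ab1, H2-Eb1, H2-DMa and Ciita. They were taken by symbol from the 55367 genes of all 4 gene matrices of a mouse single-cell study. They were chosen from measured values, since earlier results on these matrices had shown how the genes differed between Foxp3-positive and Foxp3-negative T cells and between the hippocampal libraries. Their values in those 2 contrasts are therefore a description and carry no test. The meningeal matrices held CD45+ CD3+ CD4+ sorted cells of untreated animals, with Foxp3-GFP mice as replicate 1 and B6.WT mice as replicate 2. The hippocampal matrices held CD45- Thy1- sorted cells of Foxp3-DTR- and Foxp3-DTR+ mice, 1 library each, with 2 mice pooled per library. Both hippocampal groups received diphtheria toxin, which kills cells that carry the DTR (diphtheria toxin receptor) transgene, here under Foxp3.

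MHC class II molecules are alpha-beta pairs that present peptides to CD4 T cells. The invariant chain, encoded by Cd74, holds the groove closed until proteases of the endosome cut it to a short fragment, which the DM dimer then exchanges for peptide. Dendritic cells, macrophages and B cells carry the set at a high level, and mouse T cells are usually regarded as making little of it. H2-Aa and H2-Ab1 encode the alpha and beta chains of I-A, and H2-Eb1 encodes the beta chain of I-E. H2-DMa encodes the alpha chain of DM, and Ciita encodes the class II transactivator, which interferon-gamma induces.

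The upstream stretches of H2-Aa and H2-Eb1 are shown because both hold the paired elements through which Ciita acts on these genes. Capitals mark GCAAC, which is part of the X box, and CTGATTGG, the Y box that NF-Y binds. The sequences are from RefSeq, build GRCm38.p6, and run 5′ to 3′ over the 110 bases before each gene's start. H2-Aa lies at chr17:34287824-34287933 on the minus strand, and H2-Eb1 lies at chr17:34305757-34305866 on the plus strand.
H2-Aa: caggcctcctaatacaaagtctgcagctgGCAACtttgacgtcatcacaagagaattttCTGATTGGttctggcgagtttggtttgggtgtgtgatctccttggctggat
H2-Eb1: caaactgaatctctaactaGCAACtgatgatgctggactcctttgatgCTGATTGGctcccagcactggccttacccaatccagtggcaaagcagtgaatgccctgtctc
The gap between the 2 marked elements was 25 bases in H2-Aa and 24 bases in H2-Eb1. Both strands were searched over the 250 bases before each start. Of 32851 RefSeq promoters of that length, 29.9% held GCAAC and 3.83% held CTGATTGG. The 2 elements in this order, 15 to 45 bases apart, were in 42 promoters (0.128%). H2-DMa had 2 promoter windows, of which 1 held GCAAC and neither held CTGATTGG. These matches describe letters only and say nothing of binding in these cells.

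The I-A, I-E and DM genes lie together on chromosome 17 of GRCm38 (GENCODE vM21): H2-DMa at chr17:34119541-34139101, H2-Ab1 at chr17:34257689-34269419, H2-Aa at chr17:34282744-34287823 and H2-Eb1 at chr17:34305867-34316674. Cd74 lies at chr18:60803848-60812652 and Ciita at chr16:10480059-10528418. On the same strand H2-DMa overlaps CR974462.3 and Cd74 overlaps Mir5107. On the opposite strand H2-DMa overlaps Brd2, CR974462.4 and Gm20493, H2-Eb1 overlaps Gm20513 and Ciita overlaps Dexi. Whether the counting used strand is not given in the sources used here, so reads of these overlapping genes cannot be told apart, and on the same strand not even with strand.

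A meningeal cell entered the analysis when the hashtag named in the sample's label exceeded the next by a margin of at least 2-fold. Cells led by another hashtag were left out. With the other filters, 1964 and 4430 cells entered in replicates 1 and 2. By markers (Cd3e, Cd3d, Cd3g, Trac, Cd2, Lck), 1848 and 4291 of them were T cells, with a median of 3114 and 1746 UMIs (unique molecular identifiers, each counting 1 captured RNA molecule). Foxp3, which marks regulatory T cells, had at least 1 UMI in 208 and 702 T cells (11.3% and 16.4%). Another 23 and 24 cells were myeloid and 3 and 17 were B cells. Levels below are in CPM, the UMIs of a gene per 1e+06 UMIs of the same cells, with exact 95% Poisson intervals that cover counting error only. The 2 meningeal replicates shared 7 barcodes among the analysed cells.

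Cd74 was higher in Foxp3-positive than in Foxp3-negative T cells of both replicates at each of the 4 hashtag margins. It stood at 317 against 224 CPM in replicate 1 and at 303 against 202 in replicate 2 at a margin of 2. Under a margin of 20, which keeps only cells with 1 clearly dominant hashtag, it stood at 241 (192 to 299) against 50.1 (43.7 to 57.1) in replicate 1. In replicate 2 it stood at 237 (200 to 278) against 80.1 (71.6 to 89.2) at that margin. The Foxp3-positive level changed less with the margin than the Foxp3-negative level, which was lower at 20 than at 2 in both replicates. The mean log2 ratio of positive over negative was 0.54 ± 0.06 (SD, n = 2) at a margin of 2, 1.24 ± 0.01 at 5, 1.95 ± 0.28 at 10 and 1.92 ± 0.50 at 20. Cells with a margin between 2 and 5 showed the opposite order, at 425 against 957 CPM in replicate 1 and 344 against 454 in replicate 2.

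**Figure D1:**
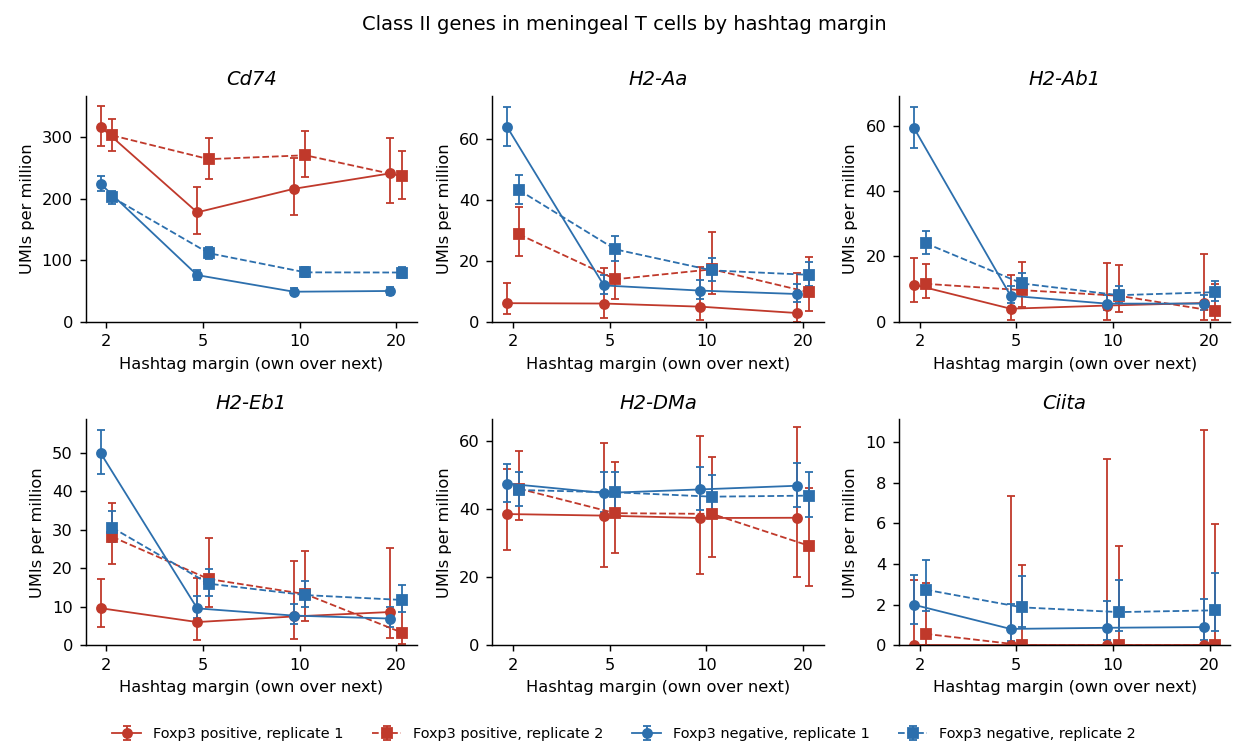
Level of each gene (CPM, vertical axes from 0) in Foxp3-positive (red) and Foxp3-negative (blue) meningeal T cells at hashtag margins of 2, 5, 10 and 20, for replicate 1 (circles, solid lines) and replicate 2 (squares, dashed lines), with 95% Poisson intervals. Cd74 is higher in Foxp3-positive cells at each margin, while the Foxp3-negative levels of H2-Aa, H2-Ab1 and H2-Eb1 are highest at a margin of 2.

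The share of cells with a Cd74 UMI followed the same order. With a margin of 20, 31.6% of 95 Foxp3-positive cells had one in replicate 1, against 10.1% of 1374 Foxp3-negative cells, with median depths of 3021 and 2892 UMIs. In replicate 2 the shares were 20.1% of 318 cells and 7.41% of 2228 cells, with median depths of 1559 and 1602 UMIs. Each cell was also thinned to 1000 UMIs, among all T cells at a margin of 2. This left out 73 and 400 cells with fewer UMIs. Foxp3 was called again on the thinned UMIs, so that cells which lost their Foxp3 UMI count as negative. After thinning, 71 Foxp3-positive cells gave 23.9% and 1704 Foxp3-negative cells 6.22% in replicate 1. Replicate 2 gave 13.6% and 7.05%. No single Foxp3-positive cell held more than 17 Cd74 UMIs at a margin of 20 in either replicate.

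The genes that pair with the invariant chain did not follow it among all T cells at margins of 2 and 20. H2-Aa stood at 2.87 against 9.13 CPM in replicate 1 and at 9.72 against 15.4 in replicate 2, Foxp3-positive first, at a margin of 20. H2-Ab1 stood at 5.75 against 5.56 in replicate 1 and at 3.24 against 9.06 in replicate 2. H2-Eb1 stood at 8.62 against 6.90 and at 3.24 against 11.8. These levels rest on few UMIs, and the intervals of the 2 groups overlapped for all 3 genes in both replicates. With a margin of 2 the Foxp3-negative cells were higher in replicate 1 for all of H2-Aa (6.11 against 63.9), H2-Ab1 (11.4 against 59.3) and H2-Eb1 (9.61 against 50.02). In replicate 2 the order was the same and the gap smaller, at 28.8 against 43.3 for H2-Aa, 11.6 against 24.0 for H2-Ab1 and 28.2 against 30.6 for H2-Eb1. The 3 genes summed had a mean log2 ratio of -1.60 at a margin of 2. In T cells with 0 UMIs of all myeloid, dendritic and B-cell markers it was 0.27 ± 0.75 (SD, n = 2) at that margin. Replicates 1 and 2 differed in sign there, at -0.26 (-2.59 to 1.39) and 0.80 (0.14 to 1.41). H2-Eb1 in those cells had 0 against 9 UMIs in replicate 1 and a log2 ratio of 1.30 (0.23 to 2.27) in replicate 2.

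H2-DMa, whose product loads peptide, was at a similar level on both sides. It stood at 38.4 against 47.4 CPM in replicate 1 and at 45.9 against 45.5 in replicate 2 at a margin of 2, and at 37.3 against 46.7 and 29.2 against 43.8 at a margin of 20. Ciita had 0 UMIs in the Foxp3-positive cells of both replicates at a margin of 20, which allows up to 8.62 and 4.86 CPM (3 counts of the total). The Foxp3-negative cells held 0.89 and 1.71, so a difference in Ciita was not detectable at this depth.

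The ratio of Cd74 to the chains it binds differed between the T-cell groups at a margin of 20. The few myeloid cells within the sort, which present antigen, held 1.49 and 1.47 Cd74 UMIs per UMI of H2-Aa, H2-Ab1 and H2-Eb1 together in replicates 1 and 2. B cells held 3.16 and 2.34. Foxp3-positive T cells at a margin of 20 held 14.0 (6.17 to 39.2) and 14.6 (7.72 to 31.1). Foxp3-negative T cells at that margin held 2.32 (1.82 to 2.97) and 2.21 (1.81 to 2.70), nearer to the presenting cells. At that margin the intervals of the Foxp3-positive T cells overlapped neither those of the Foxp3-negative T cells nor those of the presenting cells. All intervals here cover counting error only, with UMIs taken as independent, and are no test because this contrast chose the genes. The Foxp3-positive ratios at a margin of 20 rest on 6 and 10 UMIs of the chains. In cells free of all presenting-cell markers, Ighm included, the intervals were wide. The ratio there was 4.67 (1.30 to 25.3) against 2.48 (1.71 to 3.63) in replicate 1 and 4.0 (2.60 to 6.35) against 2.08 (1.66 to 2.61) in replicate 2 at a margin of 2. With a margin of 20 it was 4.0 (0.798 to 38.7) against 2.47 (1.64 to 3.80) in replicate 1 and 15 (5.56 to 56.8) against 1.75 (1.26 to 2.45) in replicate 2. Of these 4 pairs only the last did not overlap.

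**Figure D2:**
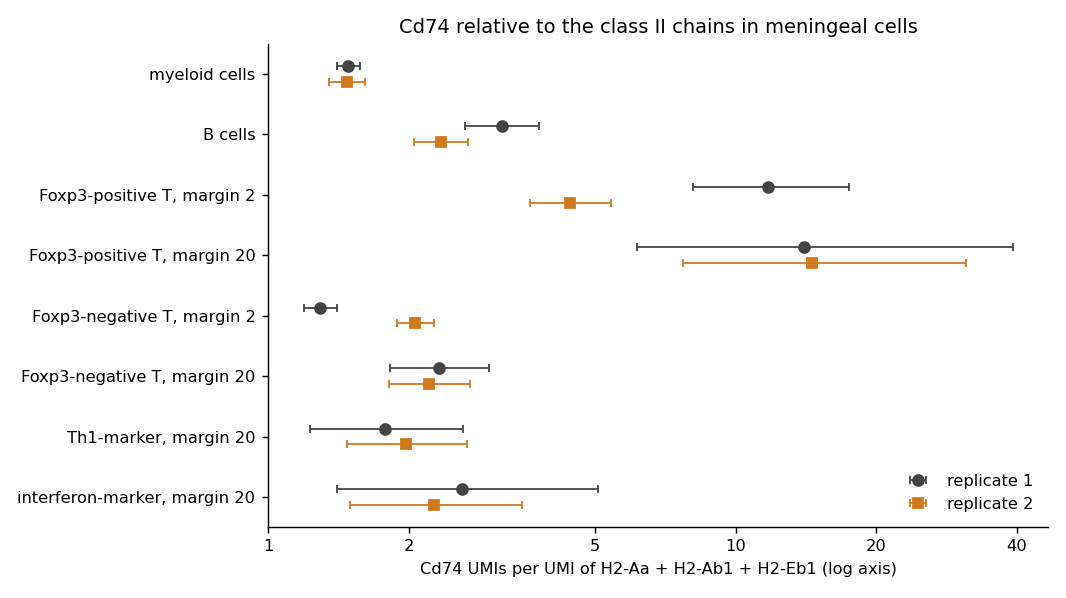
Cd74 UMIs per UMI of H2-Aa, H2-Ab1 and H2-Eb1 summed (horizontal log axis) in meningeal cell groups, for replicate 1 (circles) and replicate 2 (squares), with exact 95% intervals. Foxp3-positive T cells at a margin of 20 sit at 14.0 and 14.6, against 1.49 and 1.47 in myeloid cells.

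The ratio also gives how much Cd74 would accompany the chains if all of their UMIs came with Cd74 at the ratio of the myeloid and B cells of the same library, which was 1.61 and 1.71. That amount was 9.66 of the 84 Cd74 UMIs of Foxp3-positive cells in replicate 1 (11.5%) and 17.1 of 146 in replicate 2 (11.7%), at a margin of 20. In Foxp3-negative cells it was 156 of 225 (69.4%) and 254 of 327 (77.6%). The Foxp3-positive share was not stable across settings, at 13.8% and 38.8% with a margin of 2. In marker-free cells it was 34.5% and 42.8% with a margin of 2, and 40.3% and 11.4% with a margin of 20. Under a margin of 2 the Foxp3-positive ratio was 11.7 (8.11 to 17.5) in replicate 1 and 4.42 (3.63 to 5.41) in replicate 2, against 1.29 and 2.07 in Foxp3-negative cells.

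Myeloid cells carried the set at far higher levels, at 11568 and 14707 CPM of Cd74, 2897 and 4150 of H2-Aa and 221 and 319 of H2-DMa. B cells held 7765 and 10911 of Cd74. Markers of these cells were scarce in the T cells at a margin of 20. The 16 myeloid markers summed to 17.2 and 19.4 CPM in Foxp3-positive cells, with 4 and 8 of them detected, and to 30.9 and 23.3 in Foxp3-negative cells, with 13 and 12 detected. In the myeloid cells they summed to 8516 and 19188. Lyz2, the lysozyme of myeloid cells, stood at 2.87 and 6.48 in Foxp3-positive cells against 5.34 and 6.61 in Foxp3-negative cells. C1qa, of the first complement component, stood at 0 and 1.62 against 1.56 and 3.18. The 7 dendritic-cell markers summed to 2.87 and 3.24 against 2.003 and 3.67.

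B-cell markers moved with the Foxp3 groups. The 6 of them other than Ighm summed to 31.6 and 16.2 CPM in Foxp3-positive cells against 3.56 and 14.0 in Foxp3-negative cells at a margin of 20. All of that signal in Foxp3-positive cells was Cd79b, with 11 and 10 UMIs, while Cd79a, Ms4a1, Ighd and Pax5 were at 0 in both replicates. Ighm, the heavy chain of IgM, stood at 531 and 451 against 187 and 274. Without any cell that had a UMI of a myeloid, dendritic or B-cell marker other than Ighm, Cd74 stood at 181 against 50.8 and at 230 against 72.6 at a margin of 2. Without cells that had an Ighm UMI as well, it stood at 59.2 (32.4 to 99.4) against 37.6 (30.7 to 45.6) in replicate 1 and at 227 against 67.7 in replicate 2. In replicate 1 those intervals overlapped.

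A few cells held much of the Cd74 at the margin of 2. Cells with at least 10 Cd74 UMIs numbered 6 and 7 among Foxp3-positive T cells and held 59.2% and 34.1% of their Cd74. Among Foxp3-negative T cells they numbered 9 and 23 and held 76.1% and 67.0%. The richest of all, a Foxp3-negative cell of replicate 1, held 776 Cd74, 299 H2-Aa, 292 H2-Ab1, 229 H2-Eb1, 23 H2-DMa and 4 Ciita UMIs among 23153. It also held 17 UMIs of T-cell markers, 7 of dendritic-cell markers, 2 of myeloid markers and 29 of cycling markers (Mki67, Top2a, Birc5, Cdk1), and its hashtag margin was 2.64. The richest Foxp3-positive cells of replicates 1 and 2 held 118 and 84 Cd74 UMIs, 22 and 24 UMIs of B-cell markers and margins of 2.79 and 3.35. In replicate 1 that cell held 2 UMIs each of H2-Aa, H2-Ab1 and H2-Eb1, and in replicate 2 it held 20, 6 and 17. The Foxp3-positive ratios of Cd74 to the chains at a margin of 2 include these cells. A cell with B-cell markers could thus hold much Cd74 with few chain UMIs. Of the 21 T cells with at least 30 Cd74 UMIs, 20 had a margin under 10. Whether such cells were pairs of cells under 1 barcode was not tested. Without the richest cell of each sum the mean log2 ratio was 0.86 ± 0.50 at a margin of 2 and 1.84 ± 0.31 at a margin of 20.

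Foxp3-negative cells that carried UMIs of both Ikzf2 (Helios) and Il2ra (CD25), genes typical of regulatory T cells, were looked at after the other values had been seen. Their Cd74 at a margin of 20 stood at 236 CPM in 44 cells of replicate 1 and at 117 in 47 cells of replicate 2. Foxp3-negative cells without either gene stood at 28.8 in 1044 cells and at 56.7 in 1743 cells. The intervals of these groups at that margin overlapped in replicate 2 only, at 64.2 to 197 against 48.6 to 65.7. With a margin of 2 replicate 1 showed no such gap, at 244 against 252, and replicate 2 stood at 390 against 159.

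Of 26 further genes of class II processing, transactivation, receptors and interferon signalling, 23 could be tested between Foxp3-positive and Foxp3-negative cells. edgeR's quasi-likelihood test without a replicate block called none of them and 0 of 11633 genes (0%). It gave 252 genes at an unadjusted p below 0.05, and DESeq2 called 25. With replicate as a block, edgeR called 637 genes (5.48%), among them 3 of the 23, all higher in Foxp3-positive cells. Ctss, the protease that cuts the invariant chain in presenting cells, stood at 218 against 156 and at 203 against 132 CPM. Its log2 fold change was 0.53 (SE 0.11, edgeR adjusted p = 0.000221 with the block). Lgmn, another protease of the endosome, had 1.48 (edgeR adjusted p = 3.39e-09), and Lag3, a receptor that binds class II, had 1.17 (edgeR adjusted p = 1.34e-09). At a margin of 20 the blocked fit called 479 of 10358 genes (4.62%), and of the listed genes only Ctss, at 0.59 (edgeR adjusted p = 0.000875). With each cell thinned to 1000 UMIs, the blocked fit called 99 of 8389 genes and 0 of the 20 listed genes tested. The median log2 fold change was 0.12 over the listed genes and -0.02 over all genes without the block. No share here is read against the 6 class II genes, because this contrast chose them.

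A further 2 contrasts within Foxp3-negative T cells had not been used to choose the genes, and here the members were tested. Neither contrast was matched for depth or repeated on thinned cells. The first set cells with at least 2 UMIs of 6 interferon-induced genes (Ifit1, Ifit3, Isg15, Rsad2, Ifit2, Usp18) against cells with none. There were 328 and 393 such cells at a margin of 2 against 1017 and 2582. Replicate 1 had Cd74 at 611 against 94.2 CPM, and replicate 2 had it at 269 against 154. H2-Aa stood at 201 against 15.1 and at 45.9 against 35.0. H2-Ab1 stood at 190 against 14.8 and at 25.8 against 16.9, and H2-Eb1 at 154 against 14.2 and at 29.6 against 24.0. Each was higher in the interferon-marker cells of both replicates, by far more in replicate 1. H2-DMa differed less, at 54.9 against 48.6 and at 44.9 against 43.8.

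A single cell held 776 of the 979 Cd74 UMIs in the interferon-marker sum of replicate 1. edgeR without the block called 0 of 10458 genes (0%) and no member, with 199 genes at an unadjusted p below 0.05, and DESeq2 called 44. Cd74 had a log2 fold change of 1.89 (SE 0.52) there, and DESeq2 gave it an adjusted p of 0.0297. With no filter on low counts edgeR called 287 of 21184 genes, 4 of the 6 members among them. That setting was not repeated without the richest cell. With the block, 317 genes were called (3.03%), and 4 of the 5 members tested were among them. Those were Cd74 at 1.79 (edgeR adjusted p = 0.00267), H2-Aa at 2.17 (0.0219), H2-Ab1 at 2.52 (0.00329) and H2-Eb1 at 2.12 (0.0164), whereas H2-DMa was at 0.14 (0.852). Without the richest cell of each sum the blocked values were 0.73 for Cd74 (edgeR adjusted p = 0.00829), 0.16 for H2-Aa (0.883), -0.06 for H2-Ab1 (0.978) and -0.22 for H2-Eb1 (0.860). Under a margin of 20, Cd74 stood at 43.2 against 52.3 in replicate 1 and at 172 against 66.3 in replicate 2, so the replicates went opposite ways. The blocked fit at that margin called 420 of 9696 genes (4.33%) and gave Cd74 0.70 (edgeR adjusted p = 0.00307). That call was lost without the richest cells, at 0.14 (edgeR adjusted p = 0.902), as 38 of 77 UMIs in replicate 2 came from 1 cell.

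Of the listed genes, the blocked fit called 3 of 21 higher in the interferon-marker cells, among them the proteases Ctsl and Ctss, with log2 fold changes of 1.18 (edgeR adjusted p = 0.0151) and 0.51 (edgeR adjusted p = 0.0232), and it called none lower. Without the richest cell of each sum 2 of 21 were called, with Ctsl kept at 1.19 (edgeR adjusted p = 0.0488) and Ctss lost at 0.47 (edgeR adjusted p = 0.0702). At a margin of 20 the genes called with the block included Irf1, an interferon-induced transcription factor, at 0.49 and Nlrc5, the transactivator of MHC class I, at 0.78.

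The second contrast set cells with at least 2 UMIs of Th1 markers (Ifng, Tbx21, Cxcr3, Nkg7, Ccl5, Cxcr6) and none of naive markers (Ccr7, Lef1, Dapl1 and Igfbp4 among them) against the reverse. There were 794 and 1613 Th1-marker cells against 123 and 185 naive-marker cells at a margin of 2. Replicate 1 had Cd74 at 82.6 against 153 CPM, and replicate 2 had it at 154 against 202, lower in Th1-marker cells of both. edgeR without the block called 0 of 9469 genes (0%), with 729 at an unadjusted p below 0.05 and 80 called by DESeq2, and gave Cd74 -0.77 (adjusted p = 0.654). The blocked fit called 897 genes (9.47%), of which Cd74 was the only one of 5 members, at -0.81 (SE 0.19, edgeR adjusted p = 0.000742). At a margin of 20 it called 728 of 8562 genes (8.5%) and gave Cd74 -1.31 (edgeR adjusted p = 3.58e-05), although the replicates went opposite ways there, at 36.9 against 23.4 and at 68.0 against 282.

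The naive-marker sums rested on 1 cell in each replicate. In replicate 1 a cell held 57 of the 70 Cd74 UMIs at a margin of 2, and in replicate 2 a cell held 38 of 77, and 38 of 42 at a margin of 20. Without the richest cell of each sum Cd74 stood at 61.9 against 29.8 and at 119 against 103 CPM. The sign then turned, and no call was left, at 0.36 (edgeR adjusted p = 0.475 with the block). H2-Aa, H2-Ab1, H2-Eb1 and H2-DMa were not called in this contrast by edgeR with or without the block, with blocked values of -0.08, 0.84, 0.72 and 0.26 at a margin of 2. Of the listed genes, those that rose in Th1-marker cells with the block included Cd44, which forms a receptor complex with the invariant chain (1.44), and Nlrc5 (1.17). Those that fell were 3 of 21: Ctsl (-1.53), Ctss (-0.55) and H2-Ob, the beta chain of DO, which restrains DM (-2.67). Without the richest cell of each sum Ctss was lost, at -0.45 (edgeR adjusted p = 0.149). At a margin of 20 Ctsl (-0.66, edgeR adjusted p = 0.735) and H2-Ob (-2.67, edgeR adjusted p = 0.0946) were lost, while Ctss (-0.72) and Nfyc, a subunit of NF-Y (-1.07), were called lower. Of those, only Nfyc was called at that margin without the richest cells.

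**Figure D3:**
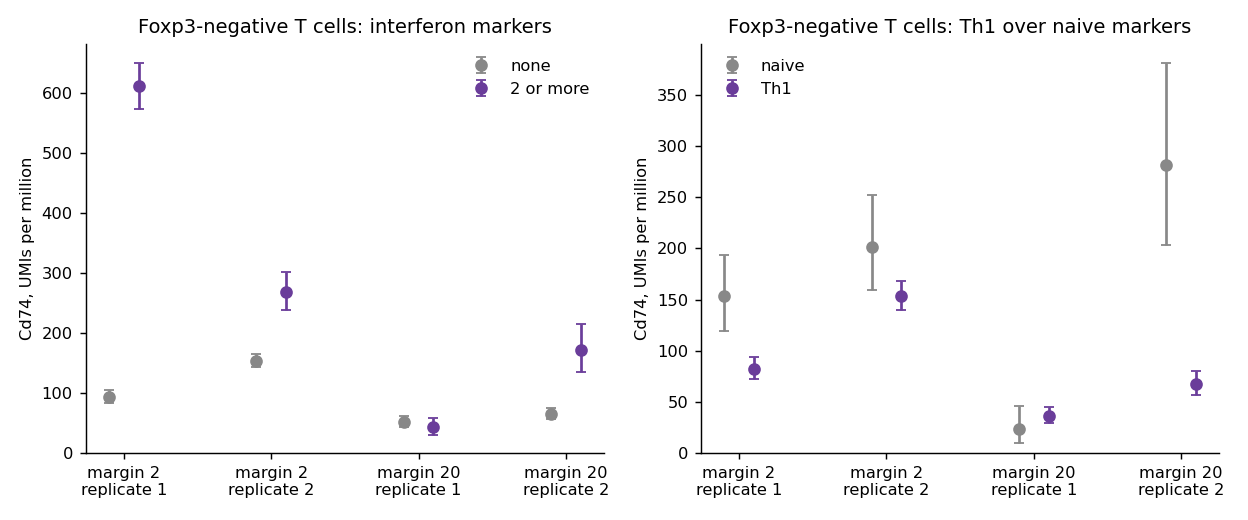
Cd74 level (CPM, vertical axes from 0) in Foxp3-negative meningeal T cells with at least 2 or with no UMIs of interferon markers (left) and with Th1 or naive markers (right), by hashtag margin and replicate, with 95% Poisson intervals. The interferon-marker level of replicate 1 falls from 611 at a margin of 2 to 43.2 at a margin of 20.

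The hippocampal libraries held 6863 cells of DTRneg mice and 5691 cells of DTRpos mice, with a median of 6003 and 4509 UMIs. The sort left out CD45-expressing cells, so the toxin's effect on Foxp3-positive cells was not measured there, and by markers only 3 and 8 cells were myeloid, 4 and 0 were T cells and none were B cells. The label gives neurons and glia, but by markers only 2 cells of each library were mature neurons. Mature oligodendrocytes numbered 3794 and 2660, OPCs (oligodendrocyte precursor cells) 744 and 926, astrocytes 1084 and 1219, endothelial cells 497 and 360, neuroblasts 179 and 135 and pericytes 186 and 163. The 2 libraries shared 18 barcodes. With 1 library per group no test was possible, and intervals cover counting error only.

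H2-DMa had 175 UMIs in DTRneg and 142 in DTRpos cells of the hippocampus, and its level was highest in OPCs among the classes with at least 50 cells. It stood there at 22.3 CPM (17.9 to 27.5) in DTRneg, from 88 UMIs in 80 cells (10.8%), and at 17.4 in DTRpos, from 71 UMIs in 68 cells (7.34%). Mature oligodendrocytes stood at 1.53 and 1.96, astrocytes at 3.35 and 2.56, endothelial cells at 3.96 and 3.08 and neuroblasts at 1.61 and 1.27. OPCs were 14.6-fold (10.3 to 20.8) and 8.85-fold (6.01 to 13.2) above mature oligodendrocytes and 6.64-fold (3.76 to 12.7) and 6.77-fold (3.47 to 14.7) above astrocytes. Pericytes were at 0 in DTRneg, where the lower bound of the OPC ratio was 2.24. In DTRpos they were at 7.52, from 2 UMIs, and the OPC ratio was 2.31 (0.616 to 19.4). Those 2 classes thus differed beyond counting error in DTRneg but not in DTRpos. No OPC held more than 2 H2-DMa UMIs. After thinning to 2000 UMIs per cell, OPCs stood at 23.2 and 17.4 and mature oligodendrocytes at 1.21 and 1.58.

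H2-DMb1 and H2-DMb2, which encode the beta chain that pairs with the product of H2-DMa, were at 0 in OPCs of both libraries. H2-Ab1 stood at 1.27 and 2.44 CPM in OPCs, from 5 and 10 UMIs, against 0.409 and 0.653 in mature oligodendrocytes and 10.6 and 7.52 in pericytes. H2-Eb1 stood at 1.77 and 2.20 CPM in OPCs, from 7 and 9 UMIs, against 0.0819 and 0.479 in mature oligodendrocytes and 5.28 and 11.3 in pericytes. By these levels both were above mature oligodendrocytes in OPCs and higher still in pericytes. The pericyte levels rest on 4 and 2 UMIs of H2-Ab1 and on 2 and 3 of H2-Eb1. In DTRpos a single OPC held 5 of the 10 H2-Ab1 UMIs. This order therefore rests on few UMIs, unlike that of H2-DMa in OPCs and mature oligodendrocytes. Myeloid markers summed to 2.79 and 1.22 CPM in OPCs, against 13.9 and 39.2 over all cells. Brd2, which overlaps H2-DMa on the other strand, stood at 77.0 and 89.7 in OPCs and at 86.2 and 91.7 in mature oligodendrocytes. Gpr17, a gene of committed precursors, was among the markers that set the OPC class, so cells could enter the class through it. Grouped by UMIs of Gpr17, OPCs held 28.0, 16.0 and 22.3 CPM of H2-DMa at 0, 1 and 2 or more in DTRneg. In DTRpos they held 21.2, 15.3 and 15.9. In DTRneg choroid plexus cells the pattern was the reverse, with 12 of the library's 15 H2-DMb1 UMIs (14.5 CPM) and no H2-DMa.

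**Figure D4:**
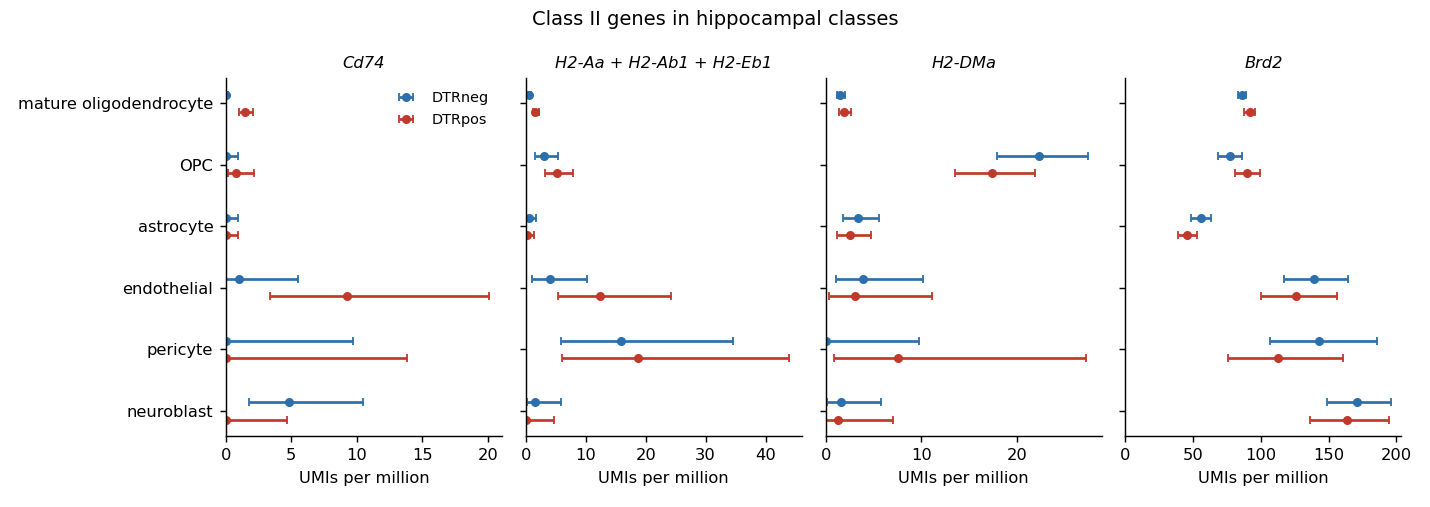
Levels (CPM, horizontal axes from 0) of Cd74, the 3 chains summed, H2-DMa and the overlapping gene Brd2 in 6 hippocampal classes of DTRneg (blue) and DTRpos (red) libraries, with 95% Poisson intervals. H2-DMa is at 22.3 and 17.4 in OPCs and below 4 in mature oligodendrocytes, astrocytes and neuroblasts, while Brd2 is not higher in OPCs than in mature oligodendrocytes beyond its interval.

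Cd74 was nearly absent from both hippocampal libraries, with 10 UMIs in 5 DTRneg cells and 50 UMIs in 6 DTRpos cells. The DTRpos excess sat in 1 cell of the mature oligodendrocyte class, which held 34 of the 50. That cell had 462 UMIs of its own class markers, 7 of B-cell markers (Cd79a 3, Ms4a1 1, Ighd 3) and 11 H2-Aa, 6 H2-Ab1, 8 H2-Eb1 and 3 H2-DMa UMIs among 18504. Another 7 UMIs were in DTRpos myeloid cells and 6 in 1 endothelial cell, and in DTRneg 6 of the 10 were in 1 neuroblast. OPCs and astrocytes of DTRneg had 0 UMIs, which by the same limit of 3 counts allows up to 0.76 CPM in OPCs and 0.719 CPM in astrocytes. Without the 5 richest cells of each library, Cd74 had 0 and 2 UMIs left.

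Over all cells the 6 genes summed were 0.75 (0.49 to 1.0) higher in DTRpos on the log2 scale, and 0.30 (0.01 to 0.59) higher without the 5 cells richest in them. The other members had few UMIs, with 3 against 18 for H2-Aa, 27 against 32 for H2-Ab1, 19 against 28 for H2-Eb1 and 3 against 1 for Ciita, DTRneg first. Their log2 ratios were 3.14 (1.36 to 5.54) for H2-Aa, 0.80 (0.01 to 1.59) for H2-Ab1, 1.11 (0.22 to 2.03) for H2-Eb1 and 0.25 (-0.08 to 0.58) for H2-DMa, with 2.87 (1.88 to 4.02) for Cd74. Over all cells 3 of the 5 members with at least 20 UMIs passed a 2-fold ratio, and 4.11% of 18128 genes did. Nothing is read from that count, because this contrast chose the genes and the 1 rich cell above held 34 of 50 Cd74, 11 of 18 H2-Aa and 8 of 28 H2-Eb1 UMIs of DTRpos. Myeloid markers moved the same way, from 682 to 1315 UMIs, and their part in these ratios was not tested. In the classes that share was 3% in mature oligodendrocytes (1 of 3 members, Cd74), 2.34% in OPCs and 2.66% in astrocytes (0 of 1, H2-DMa, in each). In endothelial cells it was 4.25%, and no member reached 20 UMIs there. In OPCs, which held 88 of the 175 H2-DMa UMIs of DTRneg and 71 of the 142 of DTRpos, the DTRpos over DTRneg ratio of that gene was -0.36 (-0.83 to 0.11) on the log2 scale.

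Of the 26 listed pathway genes, none passed 2-fold with at least 20 UMIs in mature oligodendrocytes (0 of 17), OPCs (0 of 16), astrocytes (0 of 16) or endothelial cells (0 of 13). Over all cells 2 of 21 did, both higher in DTRpos. Ctss, which microglia express strongly, had 61 against 107 UMIs (log2 ratio 1.36), and Nlrc5 had 8 against 12 (1.14), with an interval that includes 0.

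The genes whose levels over 13 class profiles (6 or 7 classes in each hippocampal library) ranked most like those of each member are given as a description, over 9603 genes that share libraries and depth with them. For Cd74 they were Arih1, Sema7a and Sos1 (Spearman 0.87) and Grasp and Ppp1r13b (0.85). For the 3 chains summed they were Pias3 (0.97), Sec24b, Ing5 and Akap12 (0.96) and Capza1 (0.95). For H2-DMa, added after its values were seen, they were Nufip2 (0.91), Elmod2 (0.89), Man2b1 (0.87), Ap5m1 and Tmem43 (0.86). Cd74 had UMIs in few of those profiles, so its order there rests on ties. The 3 chains summed and H2-DMa also had few UMIs in several profiles. The chains had 2 and 1 UMIs in astrocytes of DTRneg and DTRpos, and H2-DMa had 4 and 2 in endothelial cells. Their orders thus rest partly on small counts.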

How the data were processed

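Single-cell RNA was measured in 2 meningeal and 2 hippocampal libraries. The deposited matrices hold UMI counts, made with Cell Ranger (4.0.0 and 6.0.0 for meningeal replicates 1 and 2, 6.1.0 for the hippocampus, per the file headers). Seurat, Cell Ranger 6.1.0 and mm10 stand in the submitters' processing notes. The labels' protocols name a 3′ kit, while the series' design text names a 5′ kit for the T cells. Within each meningeal library the labelled sample's cells were picked by hashtag name. For replicate 1 the hashtag sequence in the labels differs from that in the deposited table. Columns that matched no sample numbered 0.

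Cells needed at least 500 genes and under 10% mitochondrial UMIs (hippocampus 15%). Meningeal cells also needed at least 10 counts of the labelled hashtag and a margin of 2. Scrublet (scanpy 1.11.5, Python 3.11.15) removed 242 and 158 hippocampal doublets (3.41% and 2.70%). Meningeal doublets were removed only through the hashtags. A T cell had at least 2 UMIs of T-cell markers and more of them than of presenting-cell markers other than Ighm, a myeloid cell at least 5 myeloid UMIs and a B cell at least 3 B-cell UMIs. The libraries held 60890248 and 68830571 UMIs in the meninges (all barcodes) and 49200013 and 33559996 in the hippocampal cells kept, and this depth sets the width of the intervals.

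Counts were summed per replicate and cell group and tested across all genes with edgeR 4.0.16 (glmQLFit, R 4.3.3), with Benjamini-Hochberg adjustment over all genes tested and a threshold of 0.05. DESeq2 1.42.0 was an alternative. The design fits no block. Both sums of a replicate come from 1 library and the same animals, so the block pairs them. Deviations from the group means correlated at 0.831 (Foxp3), 0.840 (interferon) and 0.628 (Th1). Whether replicates are single or pooled animals is not given in the sources used here. Tested on simulated data, the fit without a block recovered 0 of 100 genes changed 4-fold in each of the 3 contrasts. The blocked fit recovered 88 (Foxp3, 11634 genes), 94 (interferon, 10464) and 79 (Th1, 9480). At 2-fold it recovered 61, 61 and 31, and it called 1, 6 and 4 unchanged genes. The simulation gave all genes a common dispersion and had no cell that held most of a gene's UMIs. These counts therefore do not cover genes such as Cd74, whose sums could rest on a single cell.

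The 6 members and the marker and pathway lists were chosen with earlier results of these data known. All 6 were to be named in each comparison. Pathway genes were named when they passed the test or, in the hippocampus, a 2-fold ratio with at least 20 UMIs. The 5 genes most alike were taken by Spearman correlation over classes with at least 50 cells, among genes of at least 10 CPM. No Cd74, H2-Ab1 or Ciita promoter is printed. Results for some listed genes are not reported here. Alternatives were other margins, marker-free cells, thinning, DESeq2, no filter on low counts, leaving out a replicate and leaving out the cells richest in the genes.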

Additional observations from a re-analysis of the deposited data

How the results depend on the processing

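The counts of called genes moved most with pairing. With the replicate block they were 637 (Foxp3), 317 (interferon) and 897 (Th1), against 0 without it. The design gave too few residual degrees of freedom to count calls without a replicate. DESeq2 called 25, 44 and 80, and no filter on low counts gave 86, 287 and 491. The settings without the richest cell, those that exempt Ighm, and a margin of 20 in the state contrasts or with the block were chosen after seeing the data. With a margin of 20, edgeR called 5 (interferon) and 7 (Th1) without pairing, and 479 (Foxp3), 420 and 728 with the replicate block. Without the richest cell of each sum the blocked counts were 235 and 919. At a margin of 20 without those cells they were 16 and 6, and 424 and 729 with the block.

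The Cd74 ratio of Foxp3-positive over negative cells was 1.24, 1.95 and 1.92 for margins of at least 5, 10 and 20, but -1.17 and -0.40 in replicates 1 and 2 among cells with margins of 2 to 5 alone. It was 1.20 in marker-free cells, 1.75 in cells free of markers other than Ighm, 1.19 when thinned, 0.86 without the richest cells and 1.84 without them at a margin of 20. Signs turned for H2-Ab1 (0.64 and 0.27 in the marker-free cells with and without the Ighm condition) and H2-Eb1 (0.36). They also turned for the 3 chains summed (0.27 and 0.034) and H2-DMa (0.13 marker-free, 0.49 thinned, 0.013 to -0.30 without replicate 1 or 2). The cause was not tested.

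In the interferon contrast without the richest cells, H2-Ab1 turned to -0.034 (-0.063 with the block) and H2-Eb1 to -0.24 (-0.22). H2-DMa turned to -0.10 (-0.11). At a margin of 20 H2-Eb1 was -0.026 (-0.11 with the block), and without the richest cells H2-Ab1 was -0.59 (-0.54) and H2-Eb1 -0.73 (-0.75). In the Th1 contrast without those cells, Cd74 turned to 0.32 (0.36 with the block) and 1.05 (0.98) at margins of 2 and 20. H2-Aa turned to 0.59 (0.59) and 1.29 (1.22), and ran from -0.44 to 1.38 without replicate 1 or 2. H2-Eb1 turned to -0.53 (-0.56) at a margin of 20.

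The DTRpos over DTRneg ratio of the 6 genes was 0.40 when thinned to 2000 UMIs, 0.30 without the 5 richest cells and 0.41 in marker-free cells. H2-Eb1 turned to -0.071 when thinned, and the 3 chains in mature oligodendrocytes to -0.043 in marker-free cells. Over all results and settings, 160 values were kept, 13 passed the threshold only under the alternative, 41 moved and 33 changed sign. Kept meant the same direction and side of the threshold, or a move by less than the error. For counts of called genes it meant a count equal or near to the main one, and for DTR ratios a value within the main interval. Sign changes of DTR ratios were counted only where the main ratio was past 2-fold. Depth limits Ciita everywhere and Cd74 in the hippocampus.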
